A study of Mus musculus with 10 samples.

Results

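The genes described here encode the enzymes and transporters that carry glucose to pyruvate and lactate, the mitochondrial enzymes that gate the conversion of pyruvate to acetyl-CoA, and those of the pentose phosphate branch. They are 38 genes, listed by name and matched by that name to the deposited count table, where all 38 had 1 row each among 46603 genes. RNA came from macrophages of tumours grown from 4T1, an established line of mouse breast cancer cells. Cells were sorted as viable and positive for CD11B and F4/80, and then split by podoplanin (PDPN), a membrane glycoprotein. The PDPN-positive fraction, called PoEMs in the sample titles, and the PDPN-negative fraction (non-PoEMs) were both taken from tumours 1, 2, 4, 5 and 6, which gave 10 libraries in 2 groups of 5. Mouse strain, age and treatment are not in the sources used here, and whether the 5 tumours grew in 5 mice is not stated. The p-values therefore measure only the spread between libraries of these tumours.

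Glucose enters macrophages through facilitative transporters of the SLC2A (GLUT) family and is phosphorylated by hexokinases. The upper reactions of glycolysis spend ATP to make triose phosphates, and the lower reactions, from glyceraldehyde-3-phosphate dehydrogenase to pyruvate kinase, regain ATP and yield pyruvate. Lactate dehydrogenase turns pyruvate into lactate, which leaves the cell through monocarboxylate transporters, while the pyruvate dehydrogenase complex turns pyruvate into acetyl-CoA inside mitochondria unless a pyruvate dehydrogenase kinase (PDK) blocks it. The pentose phosphate branch takes glucose-6-phosphate to make NADPH and ribose phosphate. Many glycolytic genes are textbook targets of the hypoxia-inducible factor HIF-1, and inflammatory activation of macrophages is known for a rise in glycolysis.

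Libraries held 12597829 to 15406722 counts, so that 1 count was worth 0.0652 to 0.0782 CPM (counts per 1000000, here on library totals scaled by TMM, a normalisation for library composition). Pdpn mRNA followed the sort, at 19.3 ± 7.33 against 215 ± 22.9 CPM in PDPN-negative against PDPN-positive libraries (SD, n = 5 each). Itgam, which encodes CD11B, was at 1185 ± 69.3 against 1384 ± 59.3 CPM (called higher) and Adgre1, which encodes F4/80, at 573 ± 62.2 against 526.5 ± 70.7 CPM (not called). The macrophage markers Adgre1, Csf1r, Cd68, Mrc1, C1qa, C1qb, C1qc and Apoe summed to 29339 to 34778 CPM in PDPN-negative and 28476 to 32367 CPM in PDPN-positive libraries, and none was at 0; 1 of the 8 was lower. Markers of other cell types moved between the fractions. Of 10 fibroblast markers 9 were higher in PDPN-positive libraries with sums of 29.2 to 41.6 CPM in PDPN-negative and 289 to 472 CPM in PDPN-positive libraries. All 4 tested eosinophil markers of 6 listed were lower (57.2 to 141 and 4.3 to 12.6 CPM), as were 5 of 7 tested neutrophil markers, with 1 higher (385 to 558 and 309 to 652 CPM), and 2 of 6 monocyte markers (960.0 to 1506 and 457 to 682 CPM). None of 6 tested epithelial and tumour cell markers was called by edgeR without the tumour as a block (78.3 to 209 and 93.6 to 256 CPM), with 2 at an unadjusted p under 0.05. With the block Cdh1 was higher and Epcam and Krt8 were lower (edgeR adjusted p = 0.00682, 0.0356 and 0.0323). Of 3 tested endothelial markers none was called without the block and 1 was higher with it. The 1 tested marker each of B cells and of T and NK cells was lower. Counts of the other cell types are from the fit without the block. With it 4 of 6 monocyte markers were lower, of 7 neutrophil markers 2 were higher and 5 lower, and of 8 macrophage markers 1 was higher and 2 lower. The part of the other cell types in the results was not tested. In such sorted bulk samples, fewer cells of a type and less RNA per cell cannot be told apart.

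The glycolytic pathway was higher in the PDPN-positive fraction at most of its steps, while the genes of the pyruvate dehydrogenase subunits and of the non-oxidative pentose phosphate enzymes were not called. Of the 38 genes, all of which passed the filter on low counts, 18 were higher and 1, the glucose transporter gene Slc2a3, was lower in the PDPN-positive fraction (quasi-likelihood test of edgeR, with p adjusted by Benjamini-Hochberg over 13595 genes and called under 0.05). Over all genes tested, 6.83% were higher and 6.77% lower (13.6% in either direction). Among the 2687 genes at or above the median level of the 38, 7.74% were higher and 12.7% lower, against 13 higher and none lower of the 19 members in that range. The median fold change of the 38 genes was 0.31 on the log2 scale, beside 0.01 for all genes tested. In 13 of the 38 genes every PDPN-positive library lay above every PDPN-negative library (5.38% of all genes tested), and in Slc2a3 every one lay below (5.13%). The difference had the same sign in all 5 tumours for 21 genes that were higher (17.4% of all genes tested) and 3 that were lower (17.6%). A fit with the tumour as a block tests the difference within tumours. There, 22 were higher and 3 lower, beside 13.8% and 14.3% of all genes (28.2% in either direction). All 19 calls of the fit without the block were kept. The 38 genes together held 0.633% to 0.73% of the counts in PDPN-negative and 0.843% to 0.984% in PDPN-positive libraries.

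**Figure D1:**
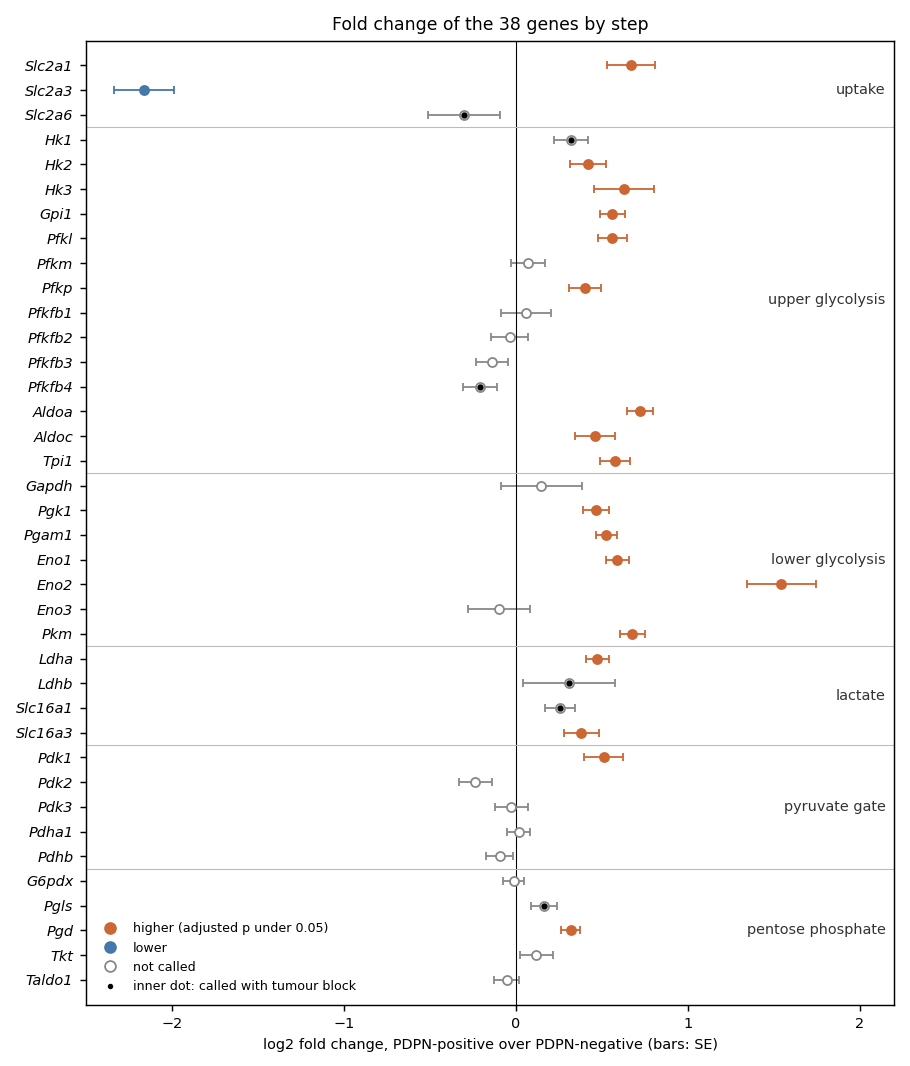
Fitted log2 fold change of each of the 38 genes (PDPN-positive over PDPN-negative, x axis) with its SE, grouped by step of the pathway; filled points passed the edgeR test and an inner dot marks genes called only with the tumour as a block. The 18 called increases lie between 0.32 and 1.54, and Slc2a3 stands alone at -2.16.

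The 250 bases before the annotated start of each member gene were searched on both strands for ACGTG and GCGTG. These are the core letters of the HIF response element. ACGTG also lies inside the palindrome CACGTG (an E-box), which is then found on both strands. RefSeq windows (GRCm38.p6) were matched for 37 of the 38 genes, Slc2a3 being the one without, and 34 of these genes had a match in at least 1 window. By window, 77.2% of 57 member windows held a match, against 38.6% of all 32851 windows, whose median GC content was 52.4% against 60.4% in the members. The part of base composition in this difference was not tested. By call, 15 of 18 genes called higher had one, and so did 19 of 19 that were not called. Shown 5′ to 3′ on the gene's strand, with matches in capitals and without bases in annotated exons, are windows of members that rose at uptake (Slc2a1, chr4:119108495-119108710, plus strand), in lower glycolysis (Pgk1, chrX:106186850-106187099, plus strand, and Eno2, chr6:124769674-124769862, minus strand, which rose most and has no match) and at the lactate step (Ldha, chr7:46845554-46845803, plus strand, the first of 2 windows).
Slc2a1: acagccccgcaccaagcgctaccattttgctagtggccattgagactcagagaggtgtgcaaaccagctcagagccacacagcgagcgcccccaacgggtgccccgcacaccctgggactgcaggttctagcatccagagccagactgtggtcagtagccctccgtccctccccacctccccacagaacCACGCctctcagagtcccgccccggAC
Pgk1: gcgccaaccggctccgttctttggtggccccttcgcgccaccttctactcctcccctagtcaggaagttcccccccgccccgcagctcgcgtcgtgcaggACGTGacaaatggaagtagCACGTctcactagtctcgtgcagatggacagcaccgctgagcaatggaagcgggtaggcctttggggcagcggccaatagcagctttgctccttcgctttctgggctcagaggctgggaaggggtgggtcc
Eno2: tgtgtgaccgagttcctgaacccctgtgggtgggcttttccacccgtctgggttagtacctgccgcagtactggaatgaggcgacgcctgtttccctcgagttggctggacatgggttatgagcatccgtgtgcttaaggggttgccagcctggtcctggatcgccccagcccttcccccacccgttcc
Ldha: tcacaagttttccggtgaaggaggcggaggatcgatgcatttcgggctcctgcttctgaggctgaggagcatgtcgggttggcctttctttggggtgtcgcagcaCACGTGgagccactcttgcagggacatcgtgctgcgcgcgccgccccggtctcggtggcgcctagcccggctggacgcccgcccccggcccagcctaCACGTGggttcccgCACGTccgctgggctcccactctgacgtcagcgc
The last capitals of Slc2a1 begin an ACGTG that runs on into the annotated first exon, which is not shown. A match is only these letters in this window, and none of these data measure binding.

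At glucose uptake the transporters went in opposite directions. Slc2a1 (chromosome 4, 119108711 to 119137983, plus strand of GRCm38), which encodes the widespread transporter GLUT1, measured 386, 264, 215, 279 and 290.2 CPM in the PDPN-negative and 500.4, 391, 426, 526.4 and 435 CPM in the PDPN-positive libraries (tumours 1, 2, 4, 5 and 6 in this order here and below). Every PDPN-positive library was above every PDPN-negative one, the highest PDPN-negative value being that of tumour 1. The log2 fold change was 0.67 ± 0.14 (SE, edgeR adjusted p = 0.00794), with an adjusted p of 0.0535 without both libraries of tumour 5. Slc2a3 (chromosome 6, 122727809 to 122801640, minus strand), the gene of the high-affinity transporter GLUT3, measured 25, 32.4, 22.1, 25 and 24.1 CPM in the PDPN-negative and 6.25, 6.21, 7.76, 3.58 and 4.73 CPM in the PDPN-positive libraries. The groups lay far apart, with PDPN-negative tumour 2 highest, and the PDPN-negative level was 4.48-fold the PDPN-positive one (log2 fold change of -2.16 ± 0.17, SE, and adjusted p = 1.5e-05 in edgeR). Eosinophil markers fell in the same libraries (sums of 57.2 to 141 and 4.3 to 12.6 CPM). Of 7 tested neutrophil markers S100a8, S100a9, Retnlg, Csf3r and Cxcr2 fell and Mmp8 rose, while Mmp9 was called higher only with the block (edgeR adjusted p = 0.125 without and 6.93e-06 with it). The part of these cells in the fall of Slc2a3 was not tested. Slc2a6, which encodes the lysosomal transporter GLUT6, was lower in 5 of 5 tumours but the groups overlapped (17.4 to 32.2 and 14.9 to 25.6 CPM). Its log2 fold change of -0.30 ± 0.21 (SE) did not pass without the block (adjusted p = 0.384) and did with it (edgeR adjusted p = 0.0111).

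In upper glycolysis 8 of 14 genes were higher and none lower. All 8 were among the 10 genes of the catalytic reactions, and none was a regulator of the PFKFB family. The hexokinase genes Hk2, for the inducible mitochondrion-bound enzyme, and Hk3, for the hexokinase of myeloid cells, rose from 231 ± 36.8 to 308 ± 31.1 CPM and from 176 ± 43.3 to 272 ± 55.2 CPM (SD, n = 5 each), or 0.42 ± 0.10 and 0.63 ± 0.17 on the log2 scale (SE, edgeR adjusted p = 0.0199 and 0.0359). Both were higher in 5 of 5 tumours, by 0.11 to 0.76 and 0.55 to 0.78 on the log2 scale, although the groups overlapped. Hk3 was highest in tumour 5 in both fractions, and Hk2 in tumour 1 among PDPN-negative libraries. Without 1 library the call for Hk2 was lost for PDPN-negative tumour 2, 4 or 5 (adjusted p 0.05001 to 0.0557), and without both libraries of tumour 2, 4, 5 or 6 (0.0513 to 0.109). For Hk3 it was lost for the PDPN-negative library of tumour 1, 2, 4 or 6 and the PDPN-positive one of tumour 2, 4 or 5 (0.06253 to 0.0839), without both of tumour 1, 2, 4 or 6 (0.0666 to 0.138), and with no filter on low counts (0.0929); with the block the adjusted p was 5.22e-07. Hk1, the gene of the housekeeping hexokinase, was higher in 5 of 5 tumours by 0.23 to 0.40 but missed the threshold (107 ± 12.1 against 134 ± 18.8 CPM, adjusted p = 0.053) and passed with the block (0.000138).

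Gpi1, for the isomerase that makes fructose-6-phosphate, measured 375, 331, 335, 320.2 and 356 CPM in the PDPN-negative and 522, 438, 527, 548 and 493.4 CPM in the PDPN-positive libraries, with no overlap (log2 fold change of 0.56 ± 0.07, SE, and adjusted p = 0.00035 in edgeR). Of the phosphofructokinase genes, whose product is the committed step, the liver form Pfkl measured 201, 162, 171, 179 and 155 CPM in the PDPN-negative and 269, 240.4, 262, 285 and 225 CPM in the PDPN-positive libraries. All PDPN-positive values of Pfkl were above all PDPN-negative ones (log2 fold change of 0.56 ± 0.08, SE, and adjusted p = 0.000899 in edgeR). The platelet form Pfkp also rose without overlap, from 169 ± 18.3 to 223 ± 27.9 CPM (adjusted p = 0.0138, 0.0589 and 0.0583 without tumour 2 or tumour 4), and the muscle form Pfkm was at 16.3 ± 1.84 against 17 ± 1.65 CPM (adjusted p = 0.69). The PFKFB enzymes set the level of fructose-2,6-bisphosphate, the activator of phosphofructokinase. None of their 4 genes was called by edgeR without the block (0 had an unadjusted p under 0.05), nor by DESeq2. Their log2 fold changes were 0.06 ± 0.15 for Pfkfb1, -0.04 ± 0.11 for Pfkfb2, -0.14 ± 0.09 for Pfkfb3 and -0.21 ± 0.10 for Pfkfb4 (SE). Pfkfb3 and Pfkfb4 were lower in 4 of 5 tumours, at 320.2 ± 40.5 against 291 ± 24.1 CPM and 81.4 ± 12.3 against 70.5 ± 5.65 CPM. Pfkfb4 was called lower with the block (edgeR adjusted p = 0.017) and without PDPN-negative tumour 6 (0.0316).

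Aldolase and triose phosphate isomerase, which split the hexose and interconvert the trioses, rose as well. Aldoa (chromosome 7, 126795234 to 126800751, minus strand) measured 757, 662, 649, 718 and 686 CPM in the PDPN-negative and 1182, 1037, 1156, 1290.4 and 1057 CPM in the PDPN-positive libraries. The lowest PDPN-positive library, tumour 2, was well above the highest PDPN-negative one, tumour 1 (log2 fold change of 0.72 ± 0.08, SE, and adjusted p = 6.95e-05 in edgeR). Aldoc, the form best known from brain, rose from 34.6 ± 5.78 to 47.6 ± 6.64 CPM (SD of 5 libraries, adjusted p = 0.0221 in edgeR), with overlapping groups; without the PDPN-negative library of tumour 2, 4 or 5 or the PDPN-positive one of tumour 1 or 5 the adjusted p was 0.0512 to 0.0576. Without both libraries of tumour 2, 4, 5 or 6 it was 0.0553 to 0.117. Tpi1 rose from 336 ± 27.2 to 501 ± 59.1 CPM without overlap, by 0.58 ± 0.09 on the log2 scale (SE, edgeR adjusted p = 0.00103).

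**Figure D2:**
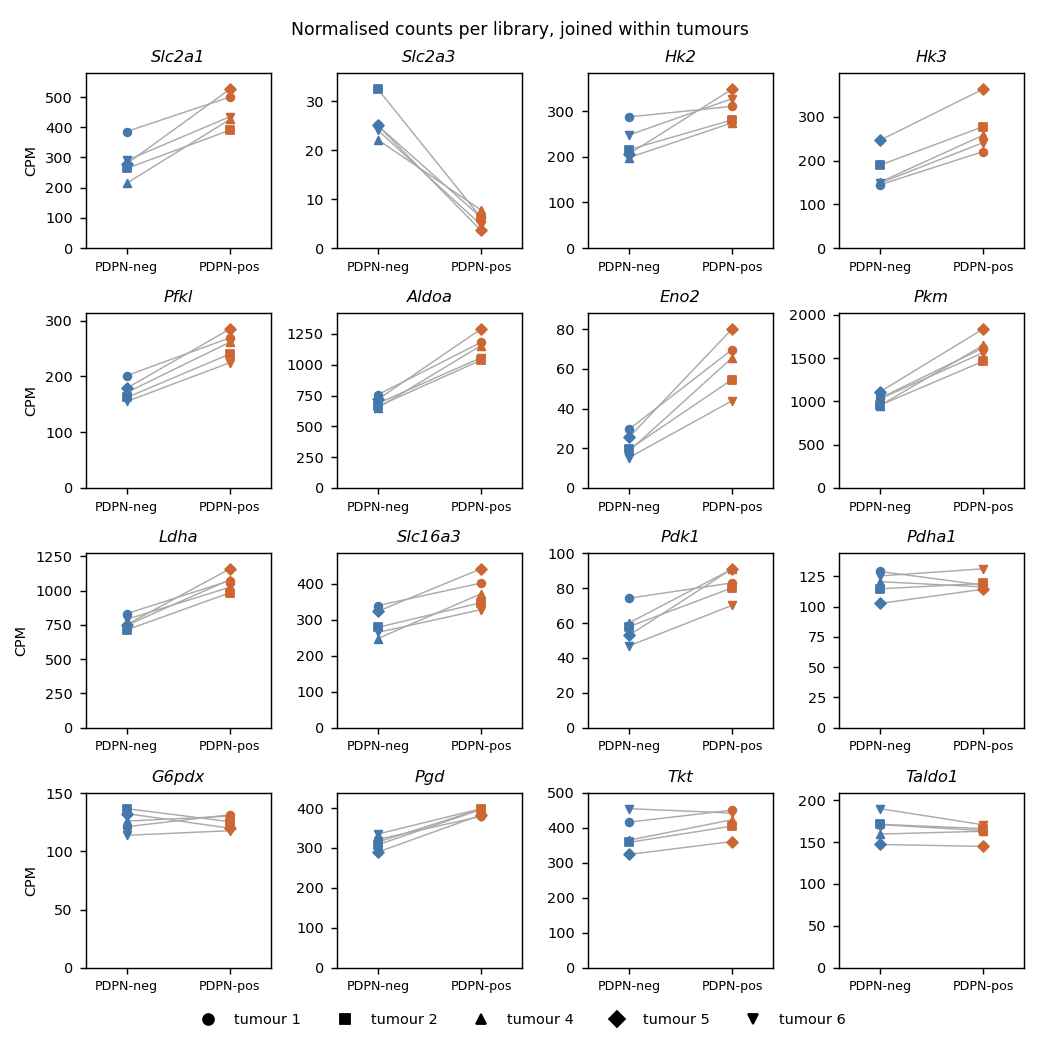
TMM-scaled CPM (y axis, from 0) of 16 of the 38 genes in the PDPN-negative and PDPN-positive library of each tumour, 1 marker shape per tumour, with lines joining the libraries of a tumour. Lines rise in all tumours for Slc2a1, Hk2, Hk3, Pfkl, Aldoa, Eno2, Pkm, Ldha, Slc16a3, Pdk1 and Pgd, and fall in all for Slc2a3. They go in both directions for Pdha1, G6pdx, Tkt and Taldo1.

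In lower glycolysis 5 of 7 genes were higher and none lower, and those 5 had no overlap between groups. Eno2 (chromosome 6, 124760053 to 124769673, minus strand), the enolase gene best known from neurons, changed most of the 18 that rose: it measured 29.5, 19.4, 18.5, 25.4 and 15.2 CPM in the PDPN-negative and 69.8, 54.7, 65.6, 80.2 and 44 CPM in the PDPN-positive libraries. PDPN-positive tumour 6, the lowest of its group, was still above PDPN-negative tumour 1, the highest of the other (fold 2.91, log2 fold change of 1.54 ± 0.20, SE, and adjusted p = 0.000805 in edgeR). Pkm, the gene of the pyruvate kinase that makes pyruvate and ATP, measured 1037, 955, 951, 1109.8 and 1028 CPM in the PDPN-negative and 1617, 1462, 1647, 1837 and 1563 CPM in the PDPN-positive libraries. Tumour 5 was highest in both fractions, and the log2 fold change was 0.68 ± 0.08 (SE, edgeR adjusted p = 0.000116). Pgk1, for the first ATP-yielding kinase of the pathway, rose from 31.3 ± 2.98 to 43.1 ± 2.94 CPM, and Pgam1, for phosphoglycerate mutase, from 26.4 ± 1.78 to 38 ± 1.31 CPM (SD, n = 5 each, adjusted p = 0.00155 and 0.000175, edgeR). Eno1, the main enolase gene of most tissues, rose from 77.1 ± 6.3 to 116 ± 6.47 CPM (log2 fold change of 0.59 ± 0.07, SE, and adjusted p = 0.000123 in edgeR). The muscle enolase gene Eno3 was at 9.84 ± 2.82 against 9.17 ± 1.21 CPM (adjusted p = 0.762), lower in tumours 1 and 2 and higher in tumours 4, 5 and 6.

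Gapdh, the gene of the enzyme that oxidises glyceraldehyde-3-phosphate, was listed at only 25.6 ± 6.37 against 28.4 ± 9.21 CPM and was not called (log2 fold change 0.15 ± 0.24 SE, adjusted p = 0.732), with tumours 1 and 6 lower and the other 3 higher in the PDPN-positive library. Many glycolytic genes have processed copies elsewhere in the genome, and reads from near-identical copies can be assigned to the wrong row or dropped. Against GENCODE M21 transcripts, 72 annotated genes matched the Gapdh coding sequence (at least 95% identity over at least 50% of its length), 69 of which had a row in the count table. These rows held 88.3% to 95.3% of the combined counts per library, nearly all in the processed pseudogene Gm13394 (245 ± 21.7 against 365 ± 20.8 CPM, higher in 5 of 5 tumours). Gapdh and its copies together measured 328, 283, 269.5, 276 and 310.0 CPM in the PDPN-negative and 443, 420.3, 416, 452 and 394 CPM in the PDPN-positive libraries. So summed, the groups did not overlap, and with members and copies merged before the fit Gapdh passed (log2 fold change 0.54 ± 0.07 SE, edgeR adjusted p = 0.000336), a step chosen after seeing the data. That made 19 of 38 genes higher.

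In total, 10 of the 38 genes had such copies, and merging changed no other call. The copy Gm1840 held 50.9% to 52.5% of the combined counts of Gpi1, and a processed pseudogene held 23.6% to 25% for Pkm. Eno1b and 2 further copies held 56.6% to 58.4% for Eno1, Pgam1-ps2 33% to 39.3% for Pgam1 and Gm6123 40.8% to 48.2% for Pdhb. Merged, the log2 fold changes were 0.55 for Gpi1, 0.69 for Pkm, 0.59 for Eno1, 0.54 for Pgam1 and -0.11 for Pdhb, each within its SE of the value for the gene row alone. The copy of Ldhb held 7.8% to 16.7% and those of Pgk1 up to 0.179% of the combined counts. The copy of Pfkfb2 held none, and the 2 copies of Ldha had no row in the count table. The level of genes with counts in such copies is therefore uncertain. For Gapdh the difference between the fractions depended on the copies too.

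**Figure D3:**
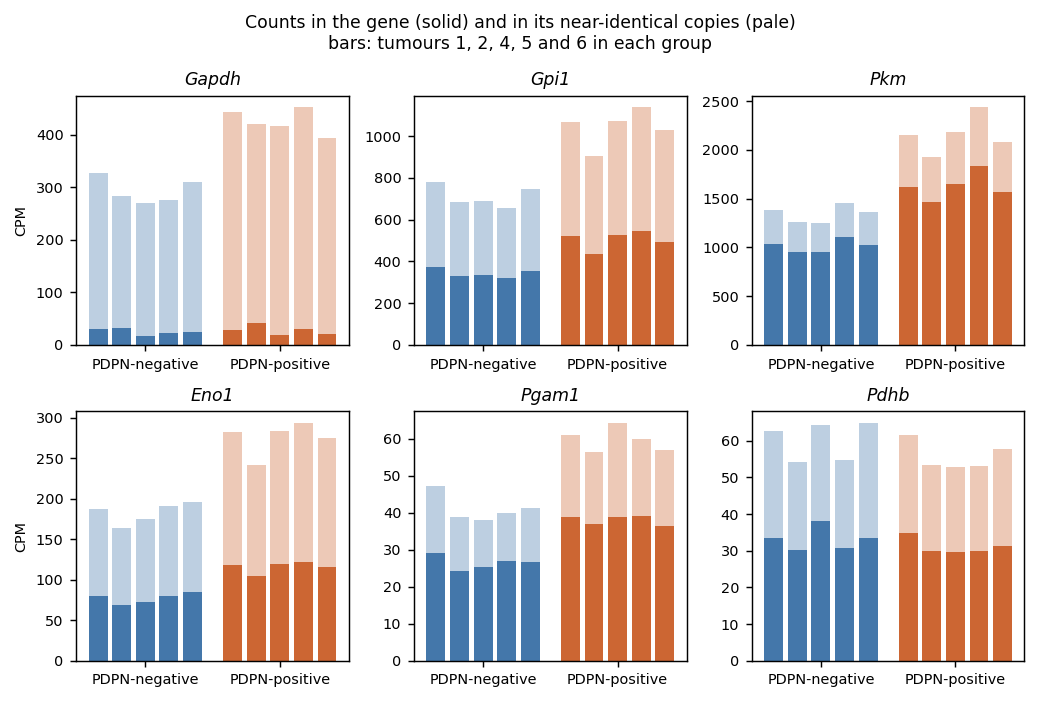
TMM-scaled CPM (y axis, from 0) in the row of 6 genes (solid) and in the rows of their near-identical annotated copies stacked on top (pale), 1 bar per library in the order of tumours 1, 2, 4, 5 and 6. For Gapdh nearly all counts sit in the copies, and the stacked bars of Gapdh, Gpi1, Pkm, Eno1 and Pgam1 are higher in every PDPN-positive library than in any PDPN-negative one.

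At the lactate step, Ldha, whose subunit favours lactate formation, measured 832, 714, 748, 752 and 791 CPM in the PDPN-negative and 1074, 985, 1080.5, 1159 and 1026 CPM in the PDPN-positive libraries. No PDPN-positive library reached down to the PDPN-negative range (log2 fold change of 0.47 ± 0.07, SE, and adjusted p = 0.000593 in edgeR). Its partner Ldhb, the heart-type subunit, was lower in count and uneven between tumours, at 14.9, 10.7, 9.24, 10.2 and 22.7 CPM in the PDPN-negative and 16.7, 15.9, 13.2, 13.3 and 24.9 CPM in the PDPN-positive libraries. Tumour 6 was highest in both fractions. The PDPN-positive library was higher in 5 of 5 tumours, by 0.13 to 0.56 on the log2 scale. The gene was called only with the block (edgeR adjusted p = 0.502 without and 0.0104 with it). Slc16a3, which encodes the lactate exporter MCT4, rose from 291 ± 39 to 378 ± 44.9 CPM (SD of 5 libraries, adjusted p = 0.0275 in edgeR) and was higher in 5 of 5 tumours by 0.24 to 0.59. The groups overlapped, and without the PDPN-negative library of tumour 2, 4 or 6 or the PDPN-positive one of tumour 1, 4 or 5 its adjusted p was 0.0528 to 0.0704. Without both libraries of tumour 2, 4 or 5 it was 0.0658 to 0.127. Slc16a1, for the bidirectional transporter MCT1, was at 37.4 ± 5.4 against 44.6 ± 1.64 CPM (adjusted p = 0.0712, 0.0119 with the block and 0.0081 without PDPN-negative tumour 6, 0.0176 without both libraries of that tumour). Bsg, whose product basigin escorts both transporters to the membrane, rose without overlap from 306 ± 16.4 to 405 ± 24.1 CPM (edgeR adjusted p = 0.00105). The related transporter gene Slc16a7, for the high-affinity pyruvate carrier MCT2, fell without overlap, from 29.5 ± 2.24 to 21 ± 1.96 CPM (log2 fold change of -0.49 ± 0.08, SE, and adjusted p = 0.00179 in edgeR).

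At the pyruvate gate 1 of 5 genes was called. Pdk1, the gene of the kinase that inactivates pyruvate dehydrogenase and a known HIF-1 target, measured 74.3, 57.9, 60.1, 52.9 and 46.9 CPM in the PDPN-negative and 83.1, 80.2, 91, 91.1 and 70.2 CPM in the PDPN-positive libraries. The groups overlapped, since PDPN-negative tumour 1 lay above PDPN-positive tumour 6, but within each tumour the PDPN-positive library was higher, by 0.16 to 0.78 on the log2 scale (log2 fold change of 0.51 ± 0.11, SE, and adjusted p = 0.0114 in edgeR). Without tumour 2, 4 or 5 the adjusted p was 0.0516, 0.0687 and 0.0738. Pdk2 was lower in 5 of 5 tumours, at 13 ± 0.909 against 11 ± 1.28 CPM, without passing either fit (adjusted p = 0.129, and 0.0591 with the block, edgeR). Pdk3 was at 39.4 ± 4.93 against 38.7 ± 4.34 CPM (adjusted p = 0.893). The subunits of the E1 enzyme that the kinases act on were nearly level: Pdha1 was at 119 ± 10.4 against 119.8 ± 6.65 CPM and Pdhb at 33.3 ± 3.13 against 31.1 ± 2.14 CPM (SD, n = 5 each), with log2 fold changes of 0.02 ± 0.07 and -0.10 ± 0.08 (SE).

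In the pentose phosphate branch 1 of 5 genes rose, and it was an enzyme late in the oxidative arm and not the first. Pgd, for the 6-phosphogluconate dehydrogenase that makes NADPH and ribulose-5-phosphate, measured 321, 308, 315, 289.7 and 335 CPM in the PDPN-negative and 379, 397, 398, 383 and 398 CPM in the PDPN-positive libraries. The groups did not overlap and the PDPN-positive values were close together (log2 fold change of 0.32 ± 0.06, SE, and adjusted p = 0.00266 in edgeR). G6pdx, for the rate-limiting glucose-6-phosphate dehydrogenase, measured 121, 137, 126, 133 and 114 CPM in the PDPN-negative and 132, 126, 130.4, 120.0 and 118 CPM in the PDPN-positive libraries. These values interleaved, with 3 tumours higher and 2 lower (log2 fold change -0.01 ± 0.06 SE, adjusted p = 0.927). Pgls, for the lactonase between them, was at 64.8 ± 7.01 against 72.6 ± 4.77 CPM (adjusted p = 0.179, 0.0343 with the block and 0.0364 without PDPN-negative tumour 6, edgeR). In the non-oxidative arm, which returns carbon to glycolysis, transketolase (Tkt) was at 383 ± 51.8 against 416 ± 35.7 CPM and transaldolase (Taldo1) at 168 ± 15.9 against 162 ± 9.87 CPM (SD, n = 5 each), with log2 fold changes of 0.12 ± 0.09 and -0.05 ± 0.07 (SE), neither called with or without the block.

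Whether related genes changed by different amounts was tested directly, as the log2 ratio of their CPM (plus 0.5) in each library, for 19 pairs (exact permutation test, two-sided, smallest possible p = 0.00794, Benjamini-Hochberg adjustment over the 19). This test treats the 10 libraries as unpaired although libraries of 1 tumour deviated together. An exact permutation test on 5 pairs cannot reach a two-sided p under 0.05, although a fit with the tumour as a block can. The sign within tumours is given beside the unpaired test. Slc2a1 over Slc2a3 rose by 2.79 between the fractions (exact permutation p = 0.00794, adjusted p = 0.0302), Pfkl over Pfkm by 0.49, Ldha over Pdha1 by 0.45 and Tkt over Taldo1 by 0.17, all with the same p and in 5 of 5 tumours. Eno1 over Eno2 fell by 0.94, also at this p and in 5 of 5 tumours. Pdk1 rose over Pdk2 by 0.74 and over Pdha1 by 0.50 (exact permutation p = 0.0159, adjusted p = 0.0431 for each). The remaining 12 ratios did not pass, among them Slc2a1 over Slc2a6 (0.98, adjusted p = 0.0685), Aldoa over Aldoc (0.26, 0.0565), Pdk1 over Pdk3 (0.54, 0.067) and Hk2 over G6pdx (0.43, 0.088, exact test). Within tumours, Slc2a1 over Slc2a6, Aldoa over Aldoc, Pdk1 over Pdk3, Eno1 over Eno3 and Pfkp over Pfkm were nonetheless higher in 5 of 5, and Pfkp over Pfkl lower in 5 of 5. Ldha over Ldhb (0.14), Slc16a3 over Slc16a1 (0.12), Hk2 over Hk1 (0.11) and Hk2 over Hk3 (-0.21) did not pass either (exact p = 0.405 to 0.619). The test was also run with 1 library left out. Each of the 7 calls was lost without PDPN-negative tumour 2 or without PDPN-positive tumour 1, 2, 4 or 5. Also lost were the 2 Pdk1 ratios and Eno1 over Eno2 without PDPN-negative tumour 4 or 6. These losses were at adjusted p of 0.0503 to 0.0754 by the exact test. Other ratios gained a call. Without PDPN-negative tumour 5, Pfkp over Pfkm, Aldoa over Aldoc and Eno1 over Eno3 passed (exact test, adjusted p = 0.0431, 0.0452 and 0.0431). Hk2 over G6pdx passed without PDPN-negative tumour 1 and Pdk1 over Pdk3 without PDPN-positive tumour 6 (exact test, adjusted p = 0.0377 and 0.0302).

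Levels of different genes were compared per kilobase of annotated exon, without the copies. On this scale Aldoa (239 and 393 CPM per kilobase in PDPN-negative and PDPN-positive libraries), Ldha (232 and 322) and Pkm (203 and 325) were the most abundant of the 38 in both fractions, followed by Tpi1 (122 and 182) and Slc2a1 (81.8 and 130.01). Slc2a1 made up most of the transporter signal per kilobase over Slc2a1, Slc2a3 and Slc2a6, and its share went from 87.4% ± 4.08 to 94.8% ± 1.7 (SD, n = 5 each), while that of Slc2a3 went from 3.89% ± 0.77 to 0.587% ± 0.193. Hk3 held 47.8% ± 6.97 to 52% ± 3.68 of the hexokinase signal, Hk2 39.4% ± 7.45 to 36.8% ± 3.96 and Hk1 12.8% ± 1.29 to 11.2% ± 1.04, shares whose means differed by less than the sum of both SDs. Among enolases the share of Eno2 went from 18.5% ± 3.69 to 32.9% ± 4.72 and that of Eno3 from 22.9% ± 5.5 to 13.2% ± 2.36, with Eno1 counted without its copies. Pfkfb3 held 69.1% ± 2.49 to 69.7% ± 2.56 of the PFKFB signal, and Pfkfb4 27.2% ± 2.54 to 26.3% ± 2.47. Of the PDK signal, Pdk3 held 56.9% ± 3.81 to 51.5% ± 4.5 and Pdk1 27.8% ± 3.64 to 36.6% ± 4.25. The lactate subunit Ldha held 96.5% ± 1.28 to 96.8% ± 0.998 of the lactate dehydrogenase signal, and Slc16a3 86.5% ± 2.27 to 87.5% ± 1.61 of that of the 2 lactate transporters.

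**Figure D4:**
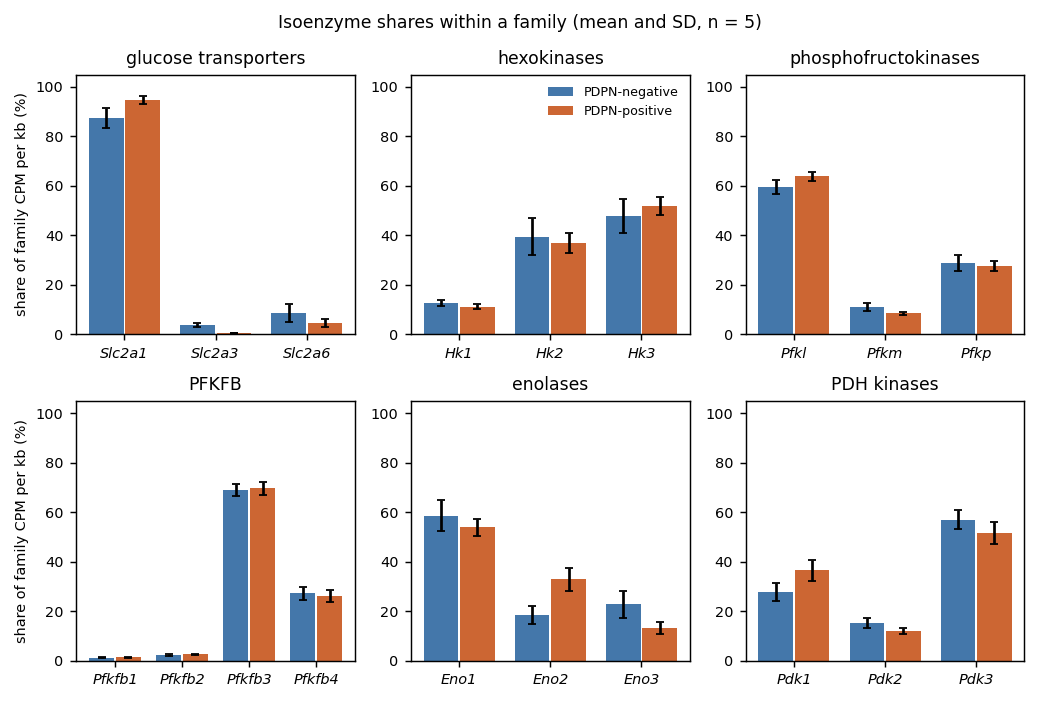
Share of each isoenzyme gene in the summed CPM per kilobase of its family (y axis, percent, bars from 0), as mean and SD over 5 PDPN-negative and 5 PDPN-positive libraries. The mean share of Slc2a3 is under 1% in the PDPN-positive fraction, those of Eno2 and Pdk1 are higher there, and the SD bars of the hexokinases, Pfkfb3 and Pfkfb4 overlap between fractions.

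Over all 38 genes the median within-tumour log2 difference was 0.17 in tumour 1, 0.33 in tumour 2, 0.40 in tumour 4, 0.37 in tumour 5 and 0.25 in tumour 6. Per tumour, 26 to 30 of the 38 were higher and 8 to 12 lower in the PDPN-positive library. The 18 genes called higher were chosen by this same difference, so their values are a description. Their median within-tumour log2 difference was 0.40 in tumour 1, 0.48 in tumour 2, 0.61 in tumour 4, 0.70 in tumour 5 and 0.50 in tumour 6. Tumour 5 gave the largest difference for 10 of the 18 and tumour 4 for the other 8, and tumour 1 gave the smallest for 10. Hk2, Pdk1 and Slc2a1 had the widest ranges among the 18. Hk2 differed by 0.11 in tumour 1 and 0.76 in tumour 5, and Slc2a1 by 0.37 in tumour 1 and 0.99 in tumour 4. Pkm and Aldoa were steadier, at 0.60 to 0.79 and 0.62 to 0.85. Over all genes tested the median difference was near 0 in each tumour (-0.0039 to 0.018).

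**Figure D5:**
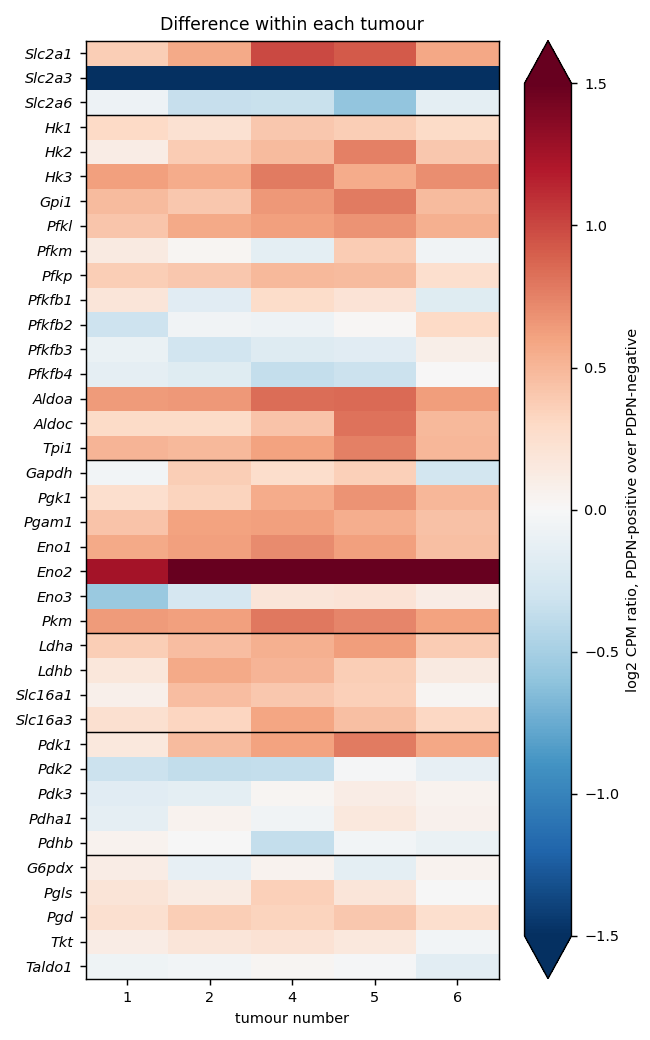
Log2 ratio of TMM-scaled CPM, PDPN-positive over PDPN-negative library, for each of the 38 genes (rows, by step) in tumours 1, 2, 4, 5 and 6 (columns); colour saturates at -1.5 and 1.5. Rows from Slc2a1 through Ldha are mostly red in every tumour apart from Slc2a3, Slc2a6, Pfkm, the PFKFB genes, Gapdh and Eno3, and the rows of pyruvate dehydrogenase and the pentose phosphate branch are mostly pale, Pgd being red in all 5 tumours.

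Of the remaining pathway genes few were called without the block and more with it, and several glycogen genes rose. Of 44 other genes of glucose transport, glycolysis, pyruvate handling, gluconeogenesis and the pentose phosphate branch, 29 were tested, of which 3 were higher and 1 lower (median 0.11 on the log2 scale), beside 13.6% of all genes called in either direction. With the block 9 of the 29 were higher and 1 lower, beside 13.8% and 14.3% of all genes. The genes called without the block were Bsg, Slc16a7, Pcx and Minpp1. Pcx, for the anaplerotic enzyme pyruvate carboxylase, was at 5.78 ± 0.985 against 8.33 ± 1.65 CPM (edgeR adjusted p = 0.0411). Minpp1, an inositol and bisphosphoglycerate phosphatase gene, was at 40.2 ± 1.57 against 45.4 ± 1.79 CPM (edgeR adjusted p = 0.0443). The call for Pcx was lost without any of 7 libraries (adjusted p up to 0.114) and that for Minpp1 without any of 9 (up to 0.122). Without both libraries of 1 tumour these reached 0.156 and 0.194. Pcx also missed in edgeR with library size alone (adjusted p = 0.0526). Minpp1 missed in edgeR with DESeq2 size factors, no filter on low counts, or a filter of 1 CPM in 5 libraries (adjusted p = 0.053, 0.118 and 0.0512). It missed as well in the DESeq2 test with the block (adjusted p = 0.171). Of 17 tested glycogen genes 7 were higher and none lower (median 0.09), beside 6.83% and 6.77% of all genes. The glycogen synthase gene Gys1 rose from 63.2 ± 10.7 to 106 ± 16.7 CPM, the branching enzyme gene Gbe1 from 14.3 ± 1.37 to 22.7 ± 2.51 CPM, the phosphoglucomutase gene Pgm2 from 72.2 ± 6.6 to 115 ± 14.5 CPM and the UDP-glucose pyrophosphorylase gene Ugp2 from 96.3 ± 4.00 to 116 ± 6.81 CPM (SD of 5 libraries, and in edgeR adjusted p = 0.00333, 0.000593, 0.000363 and 0.00754). The glycogen phosphorylase gene Pygl rose from 123 ± 16.6 to 170 ± 18.2 CPM (edgeR adjusted p = 0.00763). Ppp1r3b and Gaa were called higher too (edgeR adjusted p = 0.0179 and 0.0316). Among 15 hypoxia-inducible genes outside glycolysis 10 were higher and none lower (median 0.82), beside the same shares of all genes. Log2 fold changes were 1.65 ± 0.15 for Egln3, 1.90 ± 0.21 for P4ha2, 1.38 ± 0.15 for Ak4 and 0.82 ± 0.10 for Ero1l (SE). Vegfa was at 685 ± 161 against 756 ± 124 CPM (adjusted p = 0.602). The fibroblast sum given above was also higher in every PDPN-positive library; its part in these counts was not tested.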

How the data were processed

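Per the labels' protocols, 4T1 tumours were digested, cells were sorted by CD11B, F4/80 and PDPN, and the SMART-Seq method amplified their RNA. The authors deposited 1 table of raw counts per gene for the 10 libraries. The tools, per the submitters' processing notes, included featureCounts 1.5.3, STAR 2.5.2b, cutadapt 1.15 and Bowtie2 2.3.3.1. Genome build, annotation, strand setting and treatment of multi-mapping reads: not given in the sources used here. Counts are reads, and no molecular identifiers are described.

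Counts were tested with edgeR 4.0.16 (R 4.3.3): genes kept by filterByExpr (minimum count 10, minimum total 15; 13595 of 46603), TMM scaling, robust quasi-likelihood fit on group, Benjamini-Hochberg adjustment over all genes tested, and a call at adjusted p under 0.05. The SE is the absolute log2 fold change divided by the square root of the F statistic. DESeq2 1.42.0 was an alternative. Both fractions of a number come from 1 tumour, and the deviations of same-tumour libraries from their group means correlated at 0.25 to 0.53, so the tumour was also fitted as a block. Positions and exon lengths are from GENCODE M21 (GRCm38), a build not stated for the counts. Near-identical copies were found with blastn 2.17.0. Libraries of 1 group all differed by more than sampling noise (chi-square per gene of at least 7.58).

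The members, lists and ratios were chosen with earlier results of these data known. Named were all members, Pdpn, Itgam and Adgre1, and up to 4 genes by lowest p of each other list. Further marker genes, Vegfa, Pygl, Ppp1r3b, Gaa and the copies were named after their values were seen. No member lay below the filter.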

Additional observations from a re-analysis of the deposited data

Results flagged for a closer look

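In 3 of 76 groups of 5 libraries (38 genes in 2 fractions) a single library stood apart by Dixon's test, where chance gives about 1 in 20. Slc2a3 in PDPN-negative tumour 2 was at 32.4 CPM, against 22.1 to 25 in the other 4 libraries of its group. Pfkp in PDPN-positive tumour 5 was at 272 CPM, against 207 to 218 in the other 4 libraries of its group. Pdha1 in PDPN-positive tumour 6 was at 131 CPM, against 114 to 119 in the other 4 libraries of its group. In each case it was the highest library that stood apart. Without PDPN-negative tumour 2 the log2 fold change of Slc2a3 was -2.07 (edgeR adjusted p = 2.99e-05), without PDPN-positive tumour 5 that of Pfkp was 0.32 (adjusted p = 0.0225), and without PDPN-positive tumour 6 that of Pdha1 was -0.02 (adjusted p = 0.899).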

How the results depend on the processing

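With the tumour as a replicate block the counts over all genes were 1880 higher and 1950 lower (929 and 920 without it), and 3 members were lower in place of 1; the DESeq2 test with the block gave 1445 genes and 2 members lower. The count of members higher stayed between 12 and 22 under every alternative run, and the block changed no member call beyond the 6 given above. With 1 library or both libraries of a tumour left out, genes higher ran from 437 to 1049, genes lower from 482 to 1026 and members lower from 1 to 2. The shifts beyond 1.5 times came without PDPN-negative tumour 2 (577 lower), without PDPN-positive tumour 4 (617 higher, 588 lower) and without both libraries of tumour 2 (514 and 503), 4 (437 and 482) or 5 (595 and 494), each of which tests fewer samples. Without PDPN-negative tumour 6 Pfkfb4 joined Slc2a3 among the members lower. Leaving out the 10 members with near-identical copies, chosen after seeing the data, left 12 higher and 1 lower of 28 and a median of 0.21 in place of 0.31; merging them with their copies gave 19 and 1. Scaling by DESeq2 size factors or by library size alone moved the median of all genes by under 0.1. No called member changed sign under any alternative; 8 members that were not called did in at least 1. The member with the fewest counts was Pfkfb1, with 209 over the 5 PDPN-negative and 217 over the 5 PDPN-positive libraries.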
